A study of Fragaria x ananassa with 6 samples.

Results

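FaGST1, FaMATE and FaTT12 are strawberry genes whose names on the array point to flavonoid transport into the vacuole. Whether any of them acts in that transport was not tested. They were taken as every spot whose gene name in the array files was FaGST1, FaMATE or FaTT12, which gave 3 of the 35117 gene names, 4 of the 35337 gene probes and 7 of the 62976 spots of each array. FaGST1 had 2 probes of 2 spots each, FaMATE 1 probe with 1 spot, and FaTT12 1 probe with 2 spots. The sources used here give no probe sequences, so which member of each family a probe reads rests on the name given on the array.

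Flavonoids, among them the red anthocyanins of ripe strawberry and the proanthocyanidins of young fruit and seed coats, are made at the endoplasmic reticulum and stored in the vacuole. In other plants 3 kinds of protein act in that transfer. Glutathione S-transferases such as TT19 of Arabidopsis, AN9 of petunia and BZ2 of maize bind anthocyanins and escort them to the vacuole. MATE carriers, antiporters of the vacuolar membrane driven by protons, move flavonoid glycosides across it, and TT12 of Arabidopsis is the MATE carrier that loads proanthocyanidin precursors in the seed coat. ABC transporters of the C class carry glutathione conjugates and anthocyanins over the same membrane, and the V-ATPase pumps the protons on which the MATE carriers run.

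The study silenced FaPRE1, which encodes an atypical helix-loop-helix protein without a DNA-binding region, in the ripe receptacle of Fragaria x ananassa, the fleshy part of the strawberry. Control samples (n = 3) came from receptacles injected with Agrobacterium tumefaciens that carried the empty pFRN vector, and RNAi samples (n = 3) from receptacles injected with the pFRN-FaPRE1 silencing construct. Silencing was transient, each sample pooled several fruits, achenes were taken off before extraction, and no untreated fruit was measured, so both groups share the injection. One label of the RNAi samples calls them overexpressing, whereas their titles, their source and the study's methods call them RNAi, and the latter was followed. The extraction label names floral buds, whereas the source label and the methods name fruit, and the bacterial strain is AGL0 in the labels and AGL1 in the methods. Each RNAi sample shared a two-colour array with the control sample of the same number, with Cy3 on the RNAi sample of arrays 1 and 3 and Cy5 on that of array 2. The labels tie a number to an array and to nothing else. The SEs, confidence intervals and p-values of limma rest on the spread between these 3 pairs of pooled samples. That spread is moderated, that is, drawn toward the typical spread of all genes tested.

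The silenced gene was checked first. The probe that the array names FaPRE1 had normalized log2 signals of 10.39, 10.09 and 10.44 in control samples 1 to 3 and of 9.91, 9.55 and 9.91 in RNAi samples 1 to 3. The RNAi samples lay below all control samples, as they did in 26% of all genes tested. The log2 ratio of RNAi over control was -0.52 (SE 0.11, adjusted p = 0.015 in limma). The call was lost without array 2 (-0.51, adjusted p = 0.056), without array 3 (-0.51, adjusted p = 0.0995) and with the processed signals of the scanner software (-0.58, adjusted p = 0.060). FaPRE1 corresponds to the gene model gene30478 in the study. The row named gene30478 had a log2 ratio of -0.33 (SE 0.17) and was not called (adjusted p = 0.18), but was called with the processed signals (-0.78, adjusted p = 0.048). Whether either probe lies inside the silencing fragment is not given in the sources used here. Of the related genes, FaPRE2 (gene28320) was called lower at -1.15 (SE 0.11, adjusted p = 0.0016 in limma), a larger fall than that of FaPRE1. FaPRE3 (gene03986) was called higher at 0.74 (SE 0.11, adjusted p = 0.0063 in limma), but was at -1.35 against the spike-in RNAs described below. Whether the construct acted on FaPRE2 or FaPRE3 was not tested.

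Across the whole series, 21102 genes were bright enough to test, and 7353 of them differed between the groups, 34.8% of those tested. Of all genes tested, 17.9% were called lower and 16.9% called higher in RNAi. Ratios were centred by loess within each array and therefore read relative to the bulk of the genes, whose median log2 ratio was -0.04. Between 60.7% and 72.7% of the gene spots were well above background in control samples and between 44.1% and 60.4% in RNAi samples. Ripe-receptacle markers were present in every sample, with 5 of 5 lower in RNAi and a summed log2 signal between 17.04 and 17.31 in the control group and between 13.57 and 13.96 in the RNAi group. Markers of the achene, the seed-bearing dry fruit on the receptacle, were well above background in every sample too. All 6 of them (4 legumins, a vicilin and an oleosin) were higher in RNAi, and their summed log2 signal ran from 13.3 to 13.8 in control samples and from 17.1 to 17.3 in RNAi samples. Both marker lists hold genes that the study selected on these samples and are no independent evidence. In bulk tissue, a smaller part of the sample made up of a cell type and less RNA of a gene per cell cannot be told apart, and the part of the marker shifts in the values below was not tested.

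The signals of FaGST1 and FaMATE were 4.55-fold and 3.97-fold lower in RNAi than in control receptacles, measured against the bulk of the genes, and lower in 3 of 3 arrays each. FaTT12 lay slightly lower in 3 of 3 arrays, but its difference did not pass the test. Of the members, 2 of 3 were therefore called lower, against 17.9% of all genes tested. All 3 members passed the filter on dim spots, FaTT12 only through its control samples.

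FaGST1, the glutathione S-transferase of the set, had normalized log2 signals of 13.54, 13.63 and 13.81 in control samples 1, 2 and 3. In RNAi samples 1, 2 and 3 they were 11.38, 11.58 and 11.46. The groups were far apart, with 13.66 ± 0.14 in control and 11.47 ± 0.11 in RNAi (SD, n = 3), and no sample of either group came near the other. In 26% of all genes tested the RNAi samples lay wholly below the control samples. The log2 ratios of FaGST1 on the 3 arrays were -2.16, -2.04 and -2.35, which gave a mean of -2.19 (SE 0.12, 95% confidence interval -2.48 to -1.90, adjusted p = 0.00043 in limma). This is a 4.55-fold lower signal in RNAi, with an interval of 3.72 to 5.58.

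The 2 probes of FaGST1 gave the same picture and differed from each other on array 2. Probe FragP00002533 had normalized log2 signals of 15.07, 15.57 and 15.40 in the control samples of arrays 1, 2 and 3, and of 12.97, 13.26 and 13.06 in RNAi samples 1, 2 and 3. Probe FragP00316384 had 12.00, 11.69 and 12.22 in the control samples of arrays 1, 2 and 3, and 9.78, 9.91 and 9.85 in RNAi samples 1, 2 and 3. Each probe thus separated the groups without overlap, beside 26% of all genes tested that did so in the same direction, and each was called lower on its own. The log2 ratio was -2.25 (SE 0.11, adjusted p = 0.00037 in limma) for FragP00002533 and -2.13 (SE 0.15, adjusted p = 0.00082 in limma) for FragP00316384. The difference between the 2 probes in their log2 ratio was 0.12 and 0.04 in size on arrays 1 and 3 and 0.53 on array 2, the array with the dyes exchanged, where FragP00316384 had its smallest ratio (-1.78). The 2 spots of a probe lay within 0.14 of each other on every array. Before any normalization, FragP00002533 stood 82202, 53852 and 152196 intensity units above its local background in control samples 1, 2 and 3. In RNAi samples 1, 2 and 3 it stood 3139, 9216 and 2382 units above background, so its control signals exceeded its RNAi signals within either dye. None of the FaGST1 spots was saturated or marked as an outlier.

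FaMATE, a carrier of the MATE family, had normalized log2 signals of 11.76, 11.41 and 11.66 in control samples 1, 2 and 3. In RNAi samples 1, 2 and 3 they were 9.64, 9.64 and 9.59. The 3 RNAi samples lay close together and well below every control sample, with 11.61 ± 0.18 in control and 9.62 ± 0.03 in RNAi (SD, n = 3). Groups apart in this direction were found in 26% of all genes tested. The log2 ratios of FaMATE on the 3 arrays were -2.12, -1.77 and -2.08, with a mean of -1.99 (SE 0.12, 95% confidence interval -2.30 to -1.68, adjusted p = 0.00059 in limma). The signal in RNAi was 3.97-fold lower, with an interval of 3.21 to 4.91. Array 2, with the dyes exchanged, gave the smallest of the 3 ratios, and the fit with a dye term put the mean at -1.93 (SE 0.10, adjusted p = 0.0068). The values rest on a single spot per array, which stood 7906, 3058 and 11827 intensity units above background in the control samples of arrays 1, 2 and 3 and 274, 589 and 181 units above background in RNAi samples 1, 2 and 3. That spot was well above background in all 6 samples.

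FaTT12, named after the proanthocyanidin carrier of Arabidopsis, gave a faint signal. Its normalized log2 signals were 7.12, 6.74 and 7.05 in the control samples of arrays 1, 2 and 3 and 6.74, 6.65 and 6.69 in RNAi samples 1, 2 and 3. The lowest control sample and the highest RNAi sample were equal to 2 decimals, so the groups only just failed to overlap. The means were 6.97 ± 0.20 in control and 6.70 ± 0.04 in RNAi (SD, n = 3), and in 26% of all genes tested the RNAi samples lay wholly below the control samples. The log2 ratios of the 3 arrays were -0.38, -0.09 and -0.36, and their mean of -0.28 did not pass the test (SE 0.12, 95% confidence interval -0.57 to 0.02, adjusted p = 0.12 in limma). The interval thus reached from a signal 1.49-fold lower in RNAi to no difference.

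The faintness of FaTT12 sets how much can be read from it. Its spots stood on average 130, 41.5 and 161 intensity units above background in the control samples of arrays 1, 2 and 3, and were well above background in all 3. In RNAi samples 1, 2 and 3 they stood 25.5, 24.8 and 14.8 units above background, and only RNAi sample 2 was well above background by the scanner software. The size of the FaTT12 ratio depended on how this background was handled. With the software's processed signals in place of background correction with an offset, the arrays gave -1.54, -0.18 and -3.05 and a mean of -1.59 (SE 0.52, adjusted p = 0.056). Centring each array on the median of the kept probes, without loess, turned the sign (0.43, adjusted p = 0.27). FaTT12 therefore had neither a settled size nor a call under any of the settings tried.

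**Figure D1:**
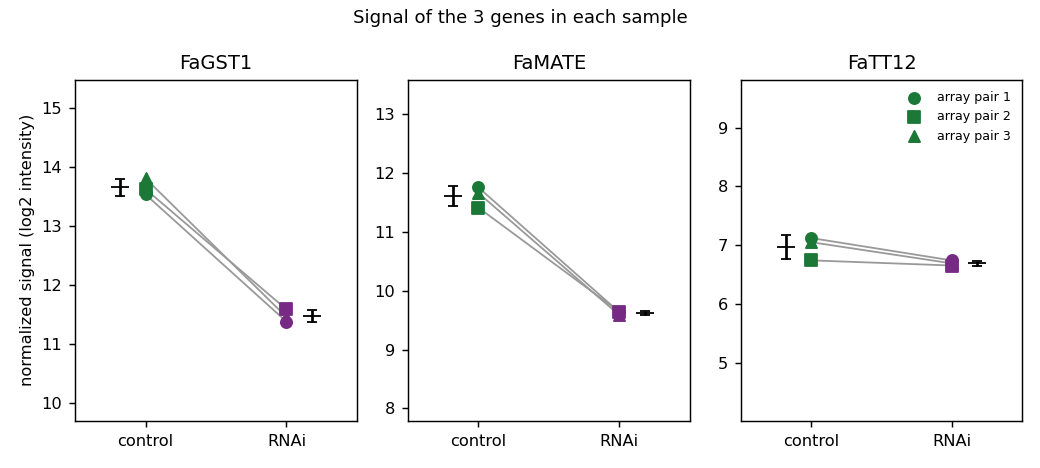
Normalized log2 signal (y axis) of FaGST1, FaMATE and FaTT12 in the 3 control and 3 RNAi samples; markers give the array, grey lines join the 2 samples of an array, and the bars beside them are the mean ± SD of a group (n = 3). All panels span the same log2 range, so the drop of FaGST1 from 13.66 to 11.47 and of FaMATE from 11.61 to 9.62 can be set beside the small one of FaTT12 from 6.97 to 6.70.

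Among all genes tested, 107 had a lower log2 ratio than FaGST1 and 138 a lower one than FaMATE, which are 0.51% and 0.65% of the 21102 genes (2.24% and 3.17% with the processed signals). For FaTT12 the share below it was 28.9% here and 7.48% with the processed signals, so its place was not settled.

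**Figure D2:**
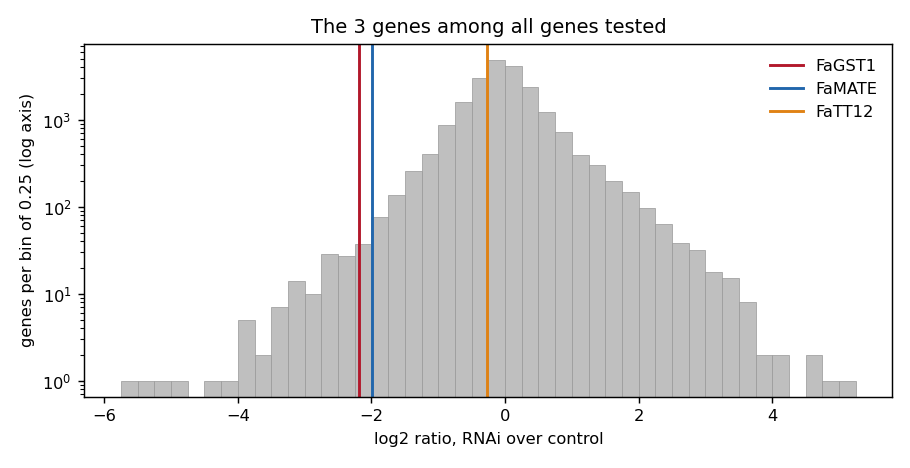
Number of genes (y axis, log scale) by log2 ratio of RNAi over control (x axis, bins of 0.25) for all 21102 genes tested, with vertical lines at the 3 members. FaGST1 (-2.19) and FaMATE (-1.99) lie in the left tail and FaTT12 near the peak at -0.28, a value that was -1.59 with the processed signals.

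The 3 members were compared with each other through the difference of their log2 ratios on each array. FaGST1 was lower than FaMATE by a mean log2 difference of -0.20 ± 0.14 (SD, n = 3), with -0.04, -0.27 and -0.28 on arrays 1, 2 and 3, a difference little larger than its own spread. FaGST1 was below FaTT12 by -1.91 ± 0.11 (SD, n = 3), and FaMATE was below FaTT12 by -1.71 ± 0.03 (SD, n = 3). FaTT12 was not well above background in RNAi samples 1 and 3, so its log2 ratios, and these 2 differences with them, depend on the background handling. With the processed signals, FaGST1 minus FaTT12 was -0.73, -1.93 and 0.47 and FaMATE minus FaTT12 was -0.70, -1.65 and 0.77 on arrays 1, 2 and 3, so that the sign turned on array 3. With 3 arrays, an exact two-sided permutation test that turns the signs of the differences cannot go below p = 0.25, and each of the 3 pairs gave p = 0.25 (adjusted over the 3 pairs, 0.25).

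The loess ratios say nothing of a shift that all genes share, so the signals were also set against the spike-in RNAs, control transcripts added to each labelled sample and read by 10 probes. On the log2 scale, the median gene signal relative to the spike-ins ran from -4.22 to -3.21 over the control samples and from -5.89 to -5.64 over the RNAi samples, a mean shift of -2.09 within dyes. The control samples alone thus spread over about 1 log2 unit, and values on this scale are given without a test. FaGST1 stood at 2.38, 3.35 and 3.63 in control samples 1 to 3 and at -1.41, -0.83 and -1.54 in RNAi samples 1 to 3, in log2 units relative to the spike-ins. On the same scale, FaMATE stood at -0.16, 0.11 and 0.79 in control samples 1 to 3 and at -4.07, -3.91 and -4.39 in RNAi samples 1 to 3. FaTT12 stood at -6.08, -6.09 and -5.41 in control samples 1 to 3 and at -7.49, -8.48 and -8.01 in RNAi samples 1 to 3. The RNAi samples lay below the control samples for each of the 3 genes on this scale, as they did for 81.5% of all genes tested. With the common shift added to the loess ratios, FaGST1 was at -4.28, FaMATE at -4.08 and FaTT12 at -2.37, the latter little beyond the shift of the median gene.

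**Figure D3:**
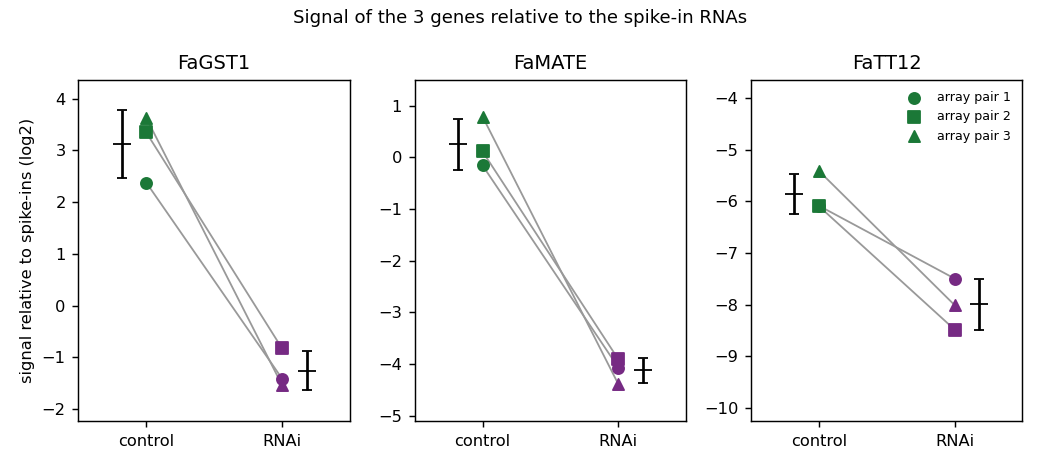
Background-subtracted log2 signal of FaGST1, FaMATE and FaTT12 relative to that of the spike-in probes (y axis) in each sample; markers give the array, grey lines join the 2 samples of an array, which differ in dye, and the bars are the mean ± SD of a group (n = 3). All panels span the same log2 range, and the RNAi samples lie below the control samples for each gene, as for 81.5% of all genes on this scale.

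The genes whose pattern over the 6 samples was most like that of each member were found by the Euclidean distance of the normalized log2 signals after each gene was centred on its own mean. The nearest gene to FaMATE was gene07028, described by the study as DETOXIFICATION 55 and thus another MATE carrier by description, at a distance of 0.14. Its 2 probes averaged 12.47 ± 0.14 in control and 10.38 ± 0.05 in RNAi (SD, n = 3), with a log2 ratio of -2.09 (SE 0.12, adjusted p = 0.00050 in limma). Whether the FaMATE probe and the probes of gene07028 read the same transcript was not tested, as no probe sequence was used here. The next nearest to FaMATE were gene31205, described as a cytoplasmic histidine--tRNA ligase, at 0.19 and a log2 ratio of -1.85, and gene14712, without a description here, at 0.22 and -2.10.

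The nearest gene to FaGST1 was gene07028 too, at a distance of 0.34, followed by gene20698, described as a probable mannitol dehydrogenase, at 0.35 with a log2 ratio of -2.30, and gene20697, without a description here, at 0.37 with -2.39. FaMATE itself lay at 0.43 from FaGST1, and only 7 other genes lay nearer to FaGST1. FaTT12 was far from both, at 2.37 from FaGST1 and 2.10 from FaMATE. Its nearest genes were gene35033 (0.08), gene22445 (0.08) and gene00365 (0.09), of which gene00365 is described as a phospholipid-transporting ATPase, and none of these 3 was called here (log2 ratios of -0.27, -0.26 and -0.30). With the processed signals, gene35033 (-1.47, adjusted p = 0.013) and gene22445 (-1.81, adjusted p = 0.014) were called lower, and with centring over the kept probes gene35033 was called higher (0.90, adjusted p = 0.017). All of these are likenesses over 6 samples of 2 groups on 3 arrays, and much of them is the difference between the groups itself.

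Other glutathione S-transferases did not share one direction. Of 6 described genes, 3 were too dim to test, 2 were called lower and 1 was called higher. The counts of this and the following lists stand beside 17.9% called lower and 16.9% called higher of all genes tested. The 2 lower glutathione S-transferases, gene18732 at -1.70 (SE 0.46, adjusted p = 0.036) and gene09427 at -1.68 (SE 0.37, adjusted p = 0.020), had arrays that disagreed in size, from -3.14 to -0.60 for the first and from -2.89 to -1.02 for the second, where the arrays of FaGST1 spanned -2.35 to -2.04. Both calls were lost without array 2 (adjusted p = 0.12 and 0.057), and without array 1 the ratios shrank to -0.98 and -1.07. Both genes are ones that the study selected on these samples. The higher one, gene00761 (U17-like), rose by 1.01 (SE 0.15, adjusted p = 0.0063) in the loess ratios, with 9.72 ± 0.34 in control and 10.73 ± 0.03 in RNAi (SD, n = 3). Its value was -1.08 on the spike-in scale, -0.49 with median centring over all gene spots and 0.39 with median centring over the kept probes, without a call in any of these. The row named gene31672, described as F11-like, is also one that the study selected on these samples. It was not well above background in any sample here and was left untested. Its signals were 5.77 to 6.07 in control and 5.89 to 6.03 in RNAi samples. Whether FaGST1 and gene31672 are the same gene was not tested, as no probe sequence was used here.

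Other MATE carriers were mostly dim or not called. Of 6 described genes, 3 were too dim to test, among them gene00576, described as DETOXIFICATION 41-like, the same DETOXIFICATION number as TT12 of Arabidopsis. It was not well above background in any sample, with signals of 6.05 to 6.21 in control and 6.08 to 6.21 in RNAi samples. Of the 3 tested, gene07028, another gene selected on these samples, was called lower, and gene01627 (0.23, SE 0.15, adjusted p = 0.27) and gene01628 (-0.06, SE 0.16, adjusted p = 0.79), both described as chloroplastic, were not called. With centring over the kept probes gene01628 was called higher (0.81, adjusted p = 0.030). The median of the 3 was -0.06, close to the median of all genes.

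ABC transporters of the C class, which carry conjugates into the vacuole, were 4 in number and all tested. The 2 described as member 12-like were called lower, gene00122 at -1.76 (SE 0.12, adjusted p = 0.00078) and gene01019 at -1.31 (SE 0.14, adjusted p = 0.0024; -2.44 with the processed signals), and the 2 described as member 2-like were not called, gene00123 at -0.29 (adjusted p = 0.25) and gene01020 at -0.22 (adjusted p = 0.29). All 4 had ratios below 0 under each scaling tried, where spike-in scaling only adds a constant of -2.09 to each loess ratio. Of the 4, gene00122 is a gene that the study selected on these samples. Of the 6 V-ATPase subunits, 1 was called lower, subunit a3 (gene01610) at -0.73 (SE 0.12, adjusted p = 0.0073), a call lost without array 3 (-0.65, adjusted p = 0.057), and 5 were not called. Their median was -0.14, beside -0.04 for all genes tested. Against the spike-ins their median was -2.24, little beyond the constant of -2.09, which by itself puts all 6 below 0. With centring over the kept probes, 3 subunits were called lower and 1 higher, with a median of -0.74 beside 0.02 for all genes. In these ratios FaGST1 (-2.19) lay below every tested gene of these 4 lists, and FaMATE (-1.99) below every one except gene07028 (-2.09). The order depended on the setting: gene01019 lay below both members with the processed signals, and gene18732 (-2.25) lay below both without array 3.

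Genes that make flavonoids or regulate their synthesis were set beside the members as well. Of the 8 flavonoid genes known by number, 6 were called lower and 2 were not called, with a median of -1.86. Over all genes tested, 17.9% were called lower and the median was -0.04. Of the 8, 7 were selected by the study on these samples. The genes called lower included 2 chalcone synthases, gene26825 (-1.85) and gene26826 (-1.84), the flavanone 3-hydroxylase gene14611 (-2.05) and MYB10, the activator of anthocyanin genes in ripening fruit (gene31413, -2.29), with ratios between -2.29 and -1.84. The gene that the study did not select, the flavonoid glucosyltransferase gene00125, was not called (-0.38, adjusted p = 0.082 in limma). It was called lower with centring over the kept probes (-0.94, adjusted p = 0.011). The anthocyanidin reductase gene24665 lay the other way at 0.63 (adjusted p = 0.073), and was called higher without background subtraction (0.74, adjusted p = 0.042) and without array 1 (0.92, adjusted p = 0.0062). A second list, by array name, holds MYB10 again as Famyb10, and whether other rows of the 2 lists read the same gene was not tested. Of the 9 genes that the array names for flavonoid enzymes and MYB10, FaANR2 and FaFLS were too dim to test, 5 were called lower, 1 was called higher, and FaDFR1C (-0.88, adjusted p = 0.086) was not called. The shares over all genes tested were 17.9% lower and 16.9% higher. Those of the 9 called lower were Famyb10 (-3.04), FaUFGT (-1.45), FaANS (-1.36), FaLAR of the proanthocyanidin branch (-1.22) and FaDFR1 (-0.96). FaANR1, named for anthocyanidin reductase of that same branch, rose by 1.29 (SE 0.27, adjusted p = 0.017) in the loess ratios. Its value was -0.81 on the spike-in scale and -0.15 with median centring over all gene spots. The calls on FaANR1 and FaDFR1 were lost without array 2 (1.17, adjusted p = 0.11, and -0.78, adjusted p = 0.21) and without array 3 (0.99, adjusted p = 0.070, and -0.69, adjusted p = 0.19). That on FaDFR1 was also lost with the processed signals (-1.07, adjusted p = 0.051). FaDFR1C was called lower without array 1 (-1.40, adjusted p = 0.00042) and with centring over the kept probes (-1.47, adjusted p = 0.00014). On arrays 1, 2 and 3 the ratios were -0.07, -1.31 and -1.48 for FaDFR1 and 0.17, -1.47 and -1.33 for FaDFR1C.

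**Figure D4:**
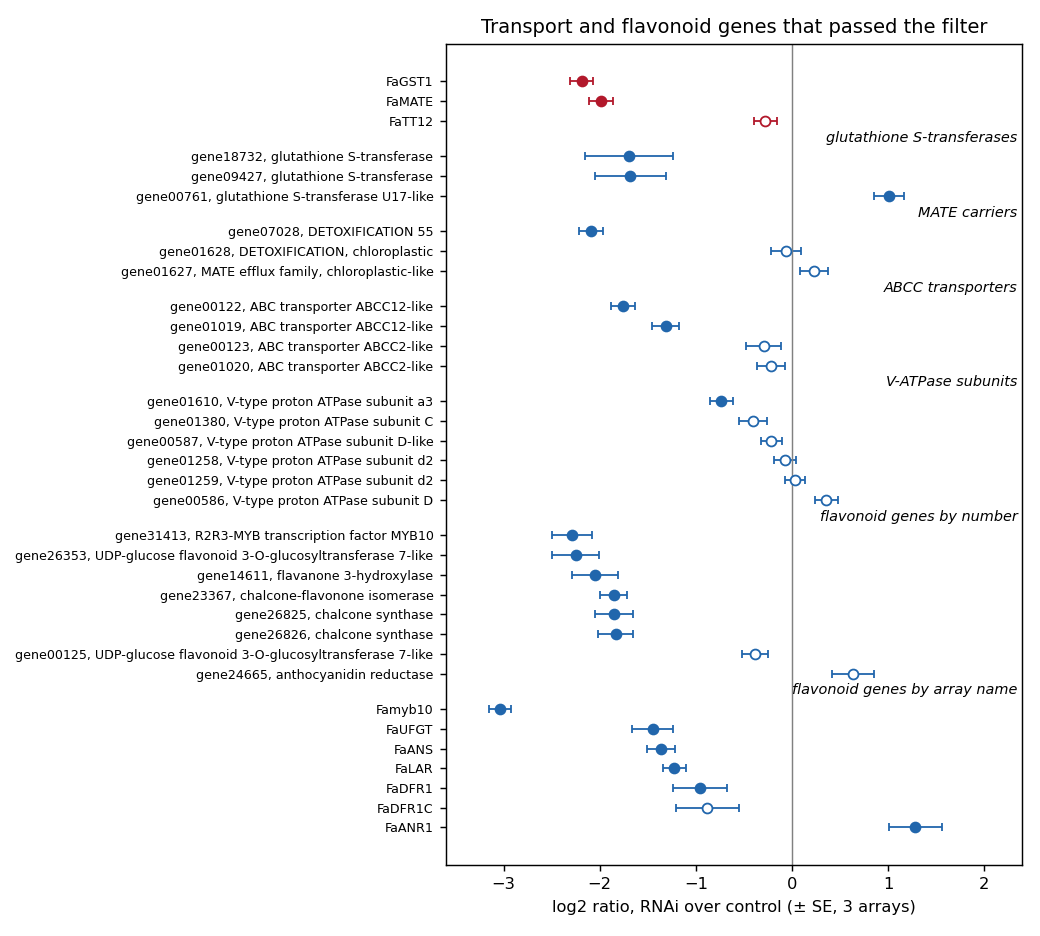
Log2 ratio of RNAi over control (x axis, mean of 3 arrays ± moderated SE of limma) for FaGST1, FaMATE and FaTT12 (red) and for the genes of the transport and flavonoid lists that passed the filter (blue). Filled points have an adjusted p under 0.05 in limma and open points do not; FaGST1 (-2.19), FaMATE (-1.99) and gene07028 (-2.09) lie together, the flavonoid genes range from -3.04 (Famyb10) to 1.29 (FaANR1), and FaTT12 is at -0.28.

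The ratios of FaGST1 and FaMATE kept their sign under each of the settings tried. Other filters, tests and thresholds leave these ratios unchanged by construction, so the sign could not turn there. Both genes were called in each setting with a test except median centring over all gene spots without loess. In that setting FaGST1 was at -3.70 (SE 0.54) and FaMATE at -3.52 (SE 0.52), both with an adjusted p of 0.051, and 0 genes of the array were called in limma, with 9063 at an unadjusted p under 0.05. Leaving out one array at a time moved FaGST1 between -2.26 and -2.10 and FaMATE between -2.10 and -1.92.

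**Figure D5:**
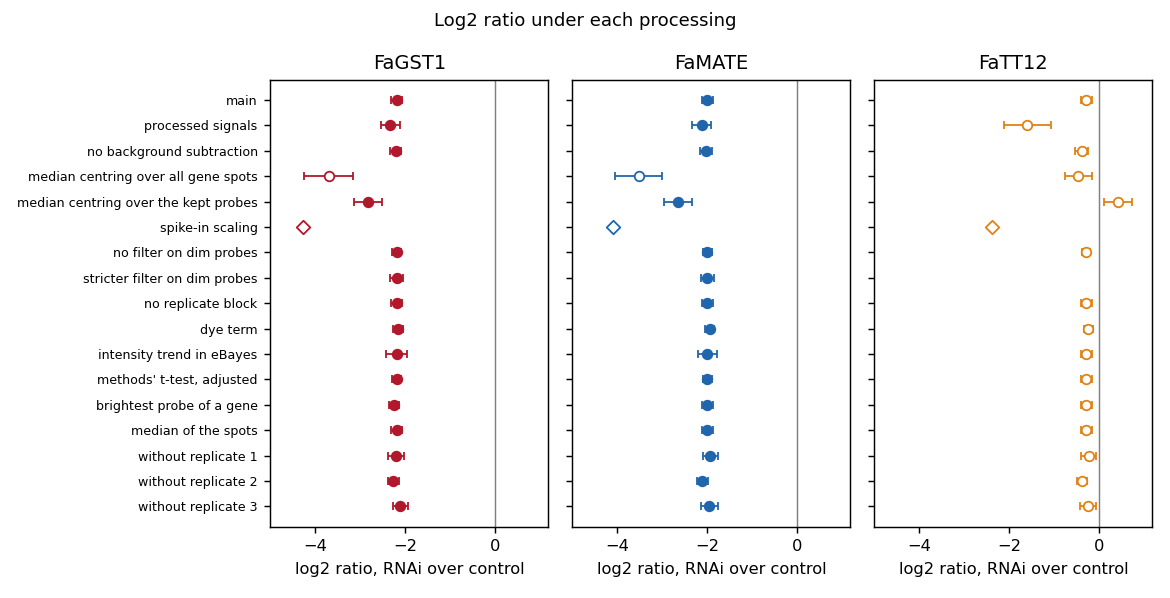
Log2 ratio of RNAi over control (x axis, ± SE) of each member under each processing (y axis). Filled points were called (adjusted p under 0.05), open circles were not, and diamonds (spike-in scaling) have no test; FaTT12 has no value under the stricter filter, and its points are open throughout.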

How the data were processed

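RNA of 3 control and 3 RNAi samples was hybridised on 3 two-colour arrays of one slide, scanned in one session. The deposited files hold spot intensities that the authors extracted with the scanner software (Agilent Feature Extraction 10.7, per the submitters' processing notes), not normalized between dyes except in the processed signals. The deposited 0/1 flags for background, saturation and outliers were used as given. Mean spot intensities were not used here, so the median intensity and the median local background were taken. No genome build applies.

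Background was corrected by normexp (offset 50), dyes were normalized by loess within arrays with control and outlier spots at weight 0, and log2 ratios were turned to RNAi over control. Spots were averaged per probe and probes per gene. A probe entered the test if, in at least one group, 50% or more of its spots were flagged as well above background on each array, which left 21223 probes. The ratios of the 3 arrays were tested with limma 3.58.1 in R 4.3.3 (lmFit, eBayes), with Benjamini-Hochberg adjustment over all 21102 genes and a threshold of 0.05. The eBayes step draws the variance of each gene toward that of all genes tested, so its SEs, intervals and p-values are moderated. Signals per sample came from Aquantile normalization. The same number means the same array, which pairs the samples; their deviations from the group means correlated at 0.43, -0.04 and 0.17. The script was tested on simulated data. The number of arrays limits the precision.

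Genes named are the members, the 3 nearest genes to each, the silenced gene with FaPRE2 and FaPRE3, and the pathway lists. Counts and medians are given for the pathway lists. The members and lists were chosen with earlier results of these data known. Alternatives were other background handling, centring, filters, probe and spot summaries, a dye term, an intensity trend, the methods' t-test, spike-in scaling, other thresholds and leaving out each array; those on the lists were added after seeing the data. Gene descriptions come from the study, whose tables were shortened, so the lists are not whole families.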

Additional observations from a re-analysis of the deposited data

How the results depend on the processing

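Of the alternatives tried, FaGST1 and FaMATE kept their direction in all 18 and their call in all with a test but one. The other filters and thresholds, the intensity trend, the methods' t-test and the median of the spots leave both ratios unchanged by construction. Their direction could therefore not turn in those settings. Median centring over all gene spots without loess put FaGST1 at -3.70 and FaMATE at -3.52 (adjusted p = 0.051 for both) and called 0 genes in limma, with 9063 at an unadjusted p under 0.05; the cause was not tested. In that setting the median of all genes was -0.86. Spike-in scaling put FaGST1 at -4.28, FaMATE at -4.08 and FaTT12 at -2.37, without a test; its construction adds one constant of -2.09 to each ratio. FaTT12 was not called in any setting with a test (adjusted p from 0.056 to 0.42), and its sign turned with median centring over the kept probes without loess (0.43). The stricter filter left FaTT12 out. Without the replicate block, with the 6 signals as 2 unpaired groups, the log2 ratios were unchanged by construction at -2.19, -1.99 and -0.28, and 7361 genes were called in place of 7353, with no change of call for a member. The number of genes called was 3422 at a threshold of 0.01. Leaving out one array at a time gave 3458 to 7127 genes, 4308 of them without array 2 and 3458 without array 3. It moved FaGST1 between -2.26 and -2.10, FaMATE between -2.10 and -1.92 and FaTT12 between -0.37 and -0.22. Taken without the study's fold-change threshold, the methods' t-test called 8697 genes at an unadjusted p under 0.05 and 4934 after adjustment. Signal over background limits FaTT12, whose spots stood on average at most 25.5 intensity units above background in an RNAi sample.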
